A study of Sus scrofa with 70 samples.

Results

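The sperm-egg fusion genes of the pig were described in 5 reproductive glands of 2 breeds. A list of 9 genes was used, namely IZUMO1, IZUMO2, IZUMO3, IZUMO4, SPACA6, TMEM95, TMEM81, DCST1 and DCST2. Of these, 8 were found by name among the 35680 genes of the RNA-seq table. DCST2 had no named gene in the deposited annotation and was taken by position, as the sum of the 4 long-read isoforms lying on the RefSeq gene DCST2, and it is given beside the other 8 and not counted with them. The animals were 12-month-old boars of the Banna mini-pig inbred line (BMI), which was derived from Diannan small-ear pigs by mating of close relatives, and of Diannan small-ear pigs (DSE) themselves. The testis, the epididymis and the accessory sex glands (vesicular, prostate and bulbourethral) were sampled from both breeds without further treatment. Each breed and gland had 3 short-read RNA-seq libraries and 1 PacBio Iso-seq library, in which single reads span whole transcripts. Nothing in the sources used here says that the 3 libraries came from separate boars, so p-values measure the spread between these libraries only.

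At fertilization a sperm that has released its acrosome binds the egg plasma membrane and the membranes fuse. IZUMO1, an immunoglobulin-domain protein that becomes exposed on the sperm head, binds the egg receptor JUNO, which the gene IZUMO1R encodes. SPACA6, TMEM95, DCST1 and DCST2 are further sperm membrane proteins that mice need for male fertility at the fusion step, and TMEM81 was placed in a complex with IZUMO1 and SPACA6. IZUMO2, IZUMO3 and IZUMO4 are relatives of IZUMO1. All are known as genes of male germ cells, which make up most of the adult testis.

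The members lie on 6 chromosomes of the pig genome build Sscrofa11.1. IZUMO1 (ENSSSCG00000003142, chr6:54072265-54076761, minus strand), IZUMO2 (ENSSSCG00000003207, chr6:55055543-55069429, minus) and SPACA6 (ENSSSCG00000003238, chr6:58304721-58331573, minus) share chromosome 6, with 978781 bases between the IZUMO pair. IZUMO3 (ENSSSCG00000005129) is at chr1:198356839-198360395 on the plus strand, and IZUMO4 (ENSSSCG00000013455) at chr2:76472224-76475267 on the minus strand. TMEM95 (ENSSSCG00000017945) is at chr12:52701052-52703216 on the plus strand, and TMEM81 (ENSSSCG00000051647) at chr9:65780693-65783145 on the minus strand. DCST1 (ENSSSCG00000035071, chr4:94748428-94768452, minus) and DCST2 (chr4:94768479-94780401, plus) are neighbours on chromosome 4. IZUMO1 shares 195 bases with RASIP1 on the same strand, and SPACA6 shares 222 bases with HAS1 on the opposite strand. By the RefSeq gene spans SPACA6 shares more, 8766 bases with HAS1 on the opposite strand and 9098 with the non-coding gene LOC110261042 on the same strand. Whether the libraries kept strand is not given in the sources used here, so reads in those bases cannot be assigned to one gene with certainty.

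In gene structure, 6 members carried the same feature. IZUMO1, IZUMO2, IZUMO3, IZUMO4, TMEM95 and SPACA6 each had an exon of 18 to 27 bases as exon 4 from the 5′ end. Among 15354 genes of the deposited annotation with at least 6 exons, the median length of exon 4 was 119 bases, and 744 of them (4.85%) had one of at most 27 bases. Exons 2, 3 and 5 had the same lengths in IZUMO1 and IZUMO2, of 75, 87 and 81 bases, and nearly the same in IZUMO3, of 75, 90 and 81. The sequences of exon 4 are printed because the shared feature is in them. Capitals mark the exon, lower case the 20 intronic bases on each side, and each is read 5′ to 3′ on the strand of its gene from Sscrofa11.1.
IZUMO1 chr6:54074699-54074719, minus strand: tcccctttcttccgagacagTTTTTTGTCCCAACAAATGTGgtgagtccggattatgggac
IZUMO2 chr6:55064064-55064084, minus strand: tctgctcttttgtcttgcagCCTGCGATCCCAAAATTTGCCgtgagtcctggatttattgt
IZUMO3 chr1:198358252-198358269, plus strand: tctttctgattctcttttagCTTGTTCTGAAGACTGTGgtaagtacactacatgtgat
IZUMO4 chr2:76473844-76473870, minus strand: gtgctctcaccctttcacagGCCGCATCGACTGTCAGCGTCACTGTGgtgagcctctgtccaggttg
TMEM95 chr12:52702048-52702068, plus strand: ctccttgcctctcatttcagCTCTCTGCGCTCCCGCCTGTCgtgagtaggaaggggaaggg
SPACA6 chr6:58323749-58323772, minus strand: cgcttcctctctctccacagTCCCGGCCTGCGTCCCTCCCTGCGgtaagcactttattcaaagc

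All 6 exons held a pair of cysteine codons, TGT or TGC, in the reading frame of a deposited coding sequence. For IZUMO3 that frame is the one of PB.1587.2, which took 16.6% of its TPM (transcript abundance scaled by length and library total) in testis, while PB.1587.1, which took 73.4%, has the exon outside its called frame. In IZUMO1, IZUMO3, IZUMO4, TMEM95 and SPACA6, 3 codons stood between them, and in IZUMO2 there were 4. The pair ended 1 base before the end of the exon in every one of the 6. The pattern was looked for in the 724 genes that lie on a chromosome and have so short an exon 4. A pair of cysteine codons with 3 or 4 codons between them, in any frame, was present in 11 of them (1.52%), of which 6 were these members. The feature was noticed in these genes and then counted, so the share of other genes is a description. For SPACA6 the exon rests on the Ensembl model ENSSSCT00000003597 alone, because neither of its Iso-seq isoforms holds it. The RefSeq model of IZUMO3, with 6 exons, lacks the IZUMO3 exon and has the introns of ENSSSCT00000074614, which skips it and took 0.111% of IZUMO3 TPM in testis.

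**Figure D1:**
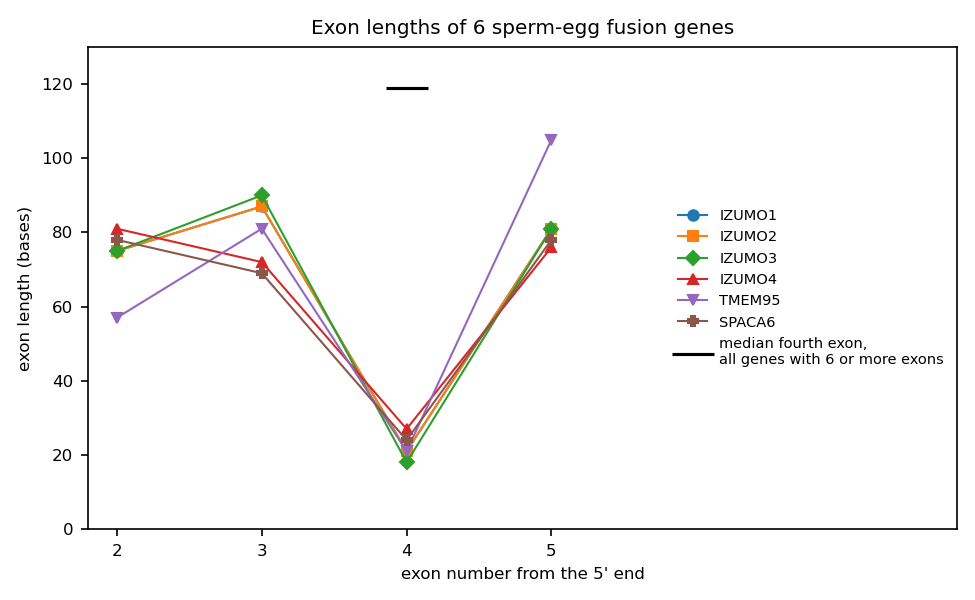
Exon length in bases against exon number from the 5′ end for exons 2 to 5 of the 6 members with a short exon 4, with a bar for the median exon 4 of genes with at least 6 exons. Exon 4 falls to 18 to 27 bases in each member against that median of 119, and the lines of IZUMO1 and IZUMO2 coincide.

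DCST1 and DCST2, which encode multi-pass membrane proteins with a DC-STAMP-like domain, stood head to head. The furthest 5′ base of DCST1 was 94768452 and that of DCST2 was 94768479, so 26 bases separated the outermost starts of the deposited models. That stretch is shown because it is all that lies between 2 genes that were measured together in the results that follow. It is given on the plus strand, that of DCST2, with capitals for all of it.
DCST1 to DCST2 gap chr4:94768453-94768478: GAGAAATTCTAGGGCCTTTAAGAGCC
Its GC content was 46.2%, against 52.7% in the 300 bases centred on it, which held 9 CpG, and 41.6% over chromosome 4. The RefSeq starts lie further apart, at 94768322 for DCST1 and 94768533 for DCST2.

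The glands were checked against marker genes. In testis INSL3, a Leydig cell marker, was at 19670 TPM and PRM1, a spermatid marker, at 51526 TPM. All 11 spermatid and all 6 Leydig markers were called higher than in the other glands, but 3 of the spermatid and all 6 Leydig markers reached 1 TPM in at most 2 of the 24 other libraries and entered that test through testis alone, where they had to be higher. In epididymis all 7 measured epididymal epithelium markers were higher than in the accessory glands. One testis library, DSE replicate 2, stood apart. Its summed spermatid markers were 25967 TPM against 78041 to 118806 in the other 5, its spermatocyte markers 118 against 261 to 428, and its Leydig markers 63648 against 18624 to 32451. Breed values in testis are given with and without it. In bulk tissue, fewer cells of a type and less RNA per cell cannot be told apart.

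IZUMO4, whose protein lacks the transmembrane segment of IZUMO1, was by far the most abundant member in testis. Its BMI testis libraries held 1057, 1112 and 1156 TPM and its DSE testis libraries 1143, 292 and 921 TPM, a mean of 947 ± 332 (SD, n = 6). All lay above the highest library of any other gland. Means outside testis were 20.3 ± 7.26 TPM for epididymis, 16.3 ± 3.64 for prostate gland, 12.5 ± 2.43 for bulbourethral gland and 6.95 ± 0.82 for vesicular gland (SD, n = 6 each), so IZUMO4 was at 1 TPM or more in all 24 of those libraries.

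IZUMO1, the JUNO ligand, measured 38.9, 32.6 and 49.4 TPM in BMI testis and 15.3, 7.91 and 30.7 in DSE testis. Every one of these values exceeded those of the other glands, where the highest was 1.70 TPM, in a DSE prostate gland. IZUMO2 measured 81.7, 65.9 and 92.2 TPM in BMI testis and 45.3, 17.5 and 61.5 in DSE testis. IZUMO3, a protein of the developing acrosome in mice, measured 57.4, 63.4 and 80.0 TPM in BMI testis and 50.8, 19.0 and 62.1 in DSE testis. Outside testis IZUMO3 was listed at 0 in 23 of 24 libraries, the exception being BMI epididymis replicate 2 at 0.626 TPM.

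Of the membrane proteins outside the IZUMO family, DCST1 measured 37.2, 27.9 and 49.3 TPM in BMI testis and 7.70, 5.35 and 19.1 in DSE testis, and DCST2 measured 37.1, 33.1 and 45.8 against 7.72, 7.27 and 23.1. TMEM95, a single-pass protein, measured 7.51, 9.47 and 7.54 TPM in BMI testis and 2.63, 2.99 and 5.88 in DSE testis. TMEM81 measured 5.15, 5.85 and 6.77 TPM in BMI testis and 1.91, 1.85 and 4.96 in DSE testis. None of these 4 genes reached 1 TPM in any library outside testis, and DCST2 was listed at 0 in 21 of those 24.

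SPACA6 departed from this pattern. It measured 5.26, 3.41 and 4.37 TPM in BMI testis and 1.19, 1.42 and 3.08 in DSE testis, a mean of 3.12 ± 1.6 (SD, n = 6). Its means in the other glands were 6.27 ± 2.56 TPM for prostate gland, 5.81 ± 2.07 for epididymis, 4.89 ± 2.33 for vesicular gland and 3.67 ± 1.29 for bulbourethral gland (SD, n = 6 each), and the groups overlapped. Testis held 13.1% of the sum of its 5 gland means, against 87.2% for TMEM81, 90.1% for IZUMO2 and 94.4% to 99.8% for the other 6.

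**Figure D2:**
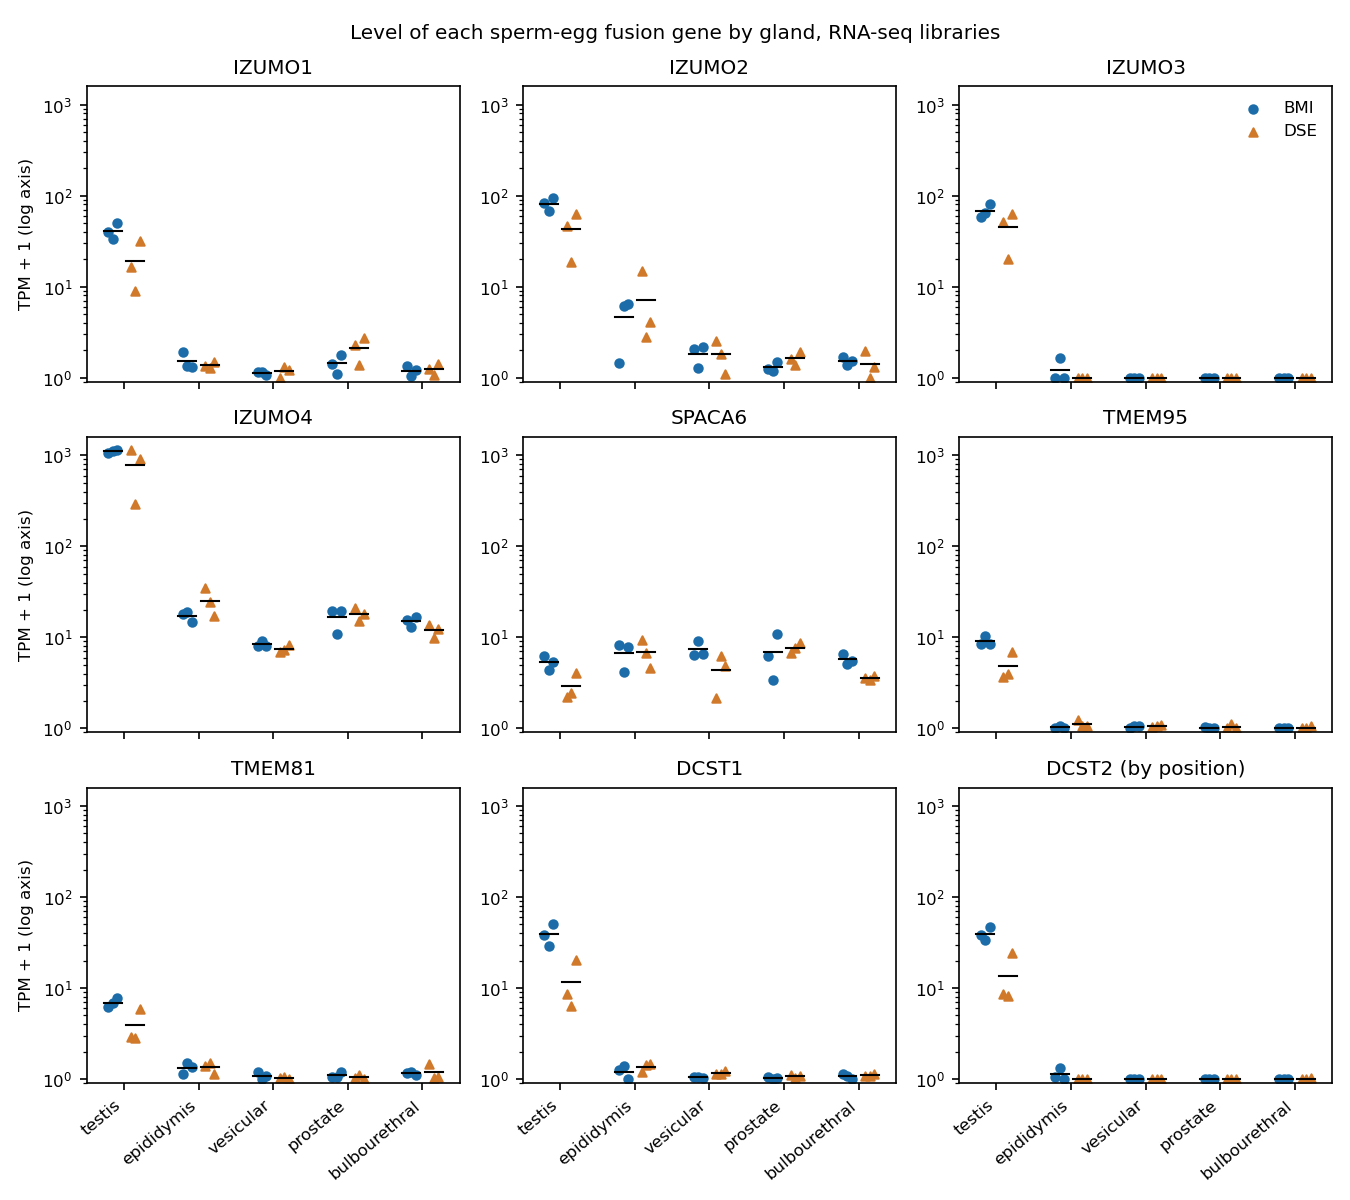
TPM + 1 on a log axis for each gene and RNA-seq library by gland, with BMI as circles, DSE as triangles and bars at the mean of each breed (n = 3). For 8 of the 9 genes the 6 testis libraries lie above all others, and for SPACA6 they lie among them.

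In order of mean testis level on the TPM scale, which is per length, IZUMO4 was followed by IZUMO2 (60.7 ± 26.7 TPM), IZUMO3 (55.4 ± 20.3), IZUMO1 (29.1 ± 15.2), DCST2 (25.7 ± 15.9), DCST1 (24.4 ± 17.1), TMEM95 (6.0 ± 2.72), TMEM81 (4.42 ± 2.07) and SPACA6. Several neighbours did not separate. IZUMO2 exceeded IZUMO3 in 3 of 6 testis libraries, DCST2 exceeded DCST1 in 4, IZUMO1 exceeded DCST2 in 5 and TMEM81 exceeded SPACA6 in 5. The other 4 steps held in all 6 libraries.

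The testis was compared with the mean of the other 4 glands in a limma fit of log2(TPM + 1) over all 30 libraries. Calls needed a p below 0.05 after Benjamini-Hochberg adjustment over all genes tested and a difference of at least 1 on the log2 scale, which understates the change of low genes. Of the 8 named members 7 were called higher and 0 lower, against 34.5% of the 19911 genes tested that were called higher and 12.7% lower. IZUMO1, IZUMO3, TMEM95, TMEM81 and DCST1 reached 1 TPM in at most 2 of the 24 other libraries and so entered the test through testis alone, where they had to be higher. For these 5, and for DCST2, the calls are a description, and neither the count nor the median over the members supports anything. The log2 differences were 5.97 (SE 0.19) for IZUMO4, 5.67 (0.15) for IZUMO3, 4.76 (0.30) for IZUMO2, 4.27 (0.18) for IZUMO1, 4.14 (0.15) for DCST1, 2.65 (0.10) for TMEM95 and 2.13 (0.12) for TMEM81. The highest adjusted p among these 7 was 2.7e-13, for IZUMO2. DCST2 by position gave 4.42 (SE 0.14, limma adjusted p = 1.9e-19). The median over the 8 members was 4.2 and that over all genes tested 0.31. All 6 testis libraries lay above all 24 others for these 7 members and DCST2, as they did for 23.8% of genes tested. The size of the difference depended on the transcripts counted. With Ensembl transcripts alone 6 members were called higher, TMEM81 no longer being tested, as were 26.7% of genes, and the log2 differences of IZUMO1, IZUMO2 and IZUMO3 were 1.18, 1.52 and 2.64. It depended also on the pseudocount. With 0.1 in place of 1 the differences were 8.88 for IZUMO3, 7.56 for DCST2, 6.5 for DCST1, 6.07 for IZUMO4, 6.01 for IZUMO1, 5.95 for IZUMO2, 5.39 for TMEM95 and 4.19 for TMEM81, so the order of the members by this difference is not fixed.

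SPACA6 was not called in that comparison. Its log2 difference was -0.58 (SE 0.22, limma adjusted p = 0.0185), which is below the fold required. With Ensembl transcripts alone the difference was -0.34 (limma adjusted p = 0.0967). Leaving out single libraries gave limma adjusted p values of up to 0.0669. The testis TPM of SPACA6 came from 3 transcripts. The Ensembl transcript ENSSSCT00000003597, with 8 exons, took 52.5%, and the short isoforms PB.15986.2 and PB.15986.3 took 37.0% and 10.6%. The RefSeq annotation of this build has no SPACA6 at the locus, and lists a non-coding gene, LOC110261042, on the same strand.

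The epididymis, where sperm mature and are stored, was compared with the vesicular, prostate and bulbourethral glands. IZUMO2 was the 1 member called higher, of 8, and 0 were called lower, against 17.6% of genes called higher and 2.43% lower. IZUMO2 measured 0.437, 5.09 and 5.47 TPM in BMI epididymis and 13.7, 1.79 and 3.11 in DSE epididymis, against at most 1.51 TPM in any accessory gland. The BMI library at 0.437 lay within the range of the accessory glands and the other 5 lay above it. The log2 difference was 1.58 (SE 0.31, limma adjusted p = 0.000161). IZUMO4 had a log2 difference of 0.75 (SE 0.20, limma adjusted p = 0.00265), below the fold required, and one of 0.18 with median-of-ratios size factors (limma adjusted p = 0.611). The median of all genes was itself shifted by 0.41 in this comparison, and with those size factors the calls over all genes went from 3513 higher and 483 lower to 1789 higher and 1025 lower.

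All IZUMO2 signal in epididymis came from the Ensembl transcript ENSSSCT00000003562, with 6 exons. The Iso-seq isoform PB.15933.1, with 7 exons, took 84.3% of the IZUMO2 TPM in testis (51.2 ± 22.2 TPM, SD, n = 6) and was listed at 0 in all 24 libraries of the other glands. Spermatid markers moved with the epididymis as well. Their sum was 121, 1093 and 41.4 TPM in BMI epididymis and 262, 14.6 and 97.6 in DSE epididymis, against 0.688 to 8.32 TPM in the accessory glands, and 8 of the 11 were called higher. IZUMO2 was highest in DSE replicate 1 and spermatid markers in BMI replicate 2. DSE replicate 1 also had the lowest macrophage marker sum of the 6 epididymis libraries (30.5 TPM against 79.1 to 330) and the lowest sum of other gamete fusion factors (659 against 2349 to 3511), and the study's quality table gives it the lowest transcript integrity of the RNA-seq libraries. Without it the IZUMO2 difference was 1.23 (limma adjusted p = 0.000913). All 4 smooth muscle markers were called higher in epididymis too (median 3.24). The part of sperm RNA, tissue makeup or RNA quality in the IZUMO2 result was not tested.

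Between the breeds, testis levels in DSE were compared with those in BMI in a limma fit of the 6 testis libraries. None of the 8 members was called, against 0.585% of 16414 genes called in either direction, and 6 of the 8 had an unadjusted p below 0.05, as had 13.4% of those genes. All 3 DSE libraries lay below all 3 BMI libraries for IZUMO1, IZUMO2, SPACA6, TMEM95, TMEM81 and DCST1, and for DCST2, as they did for 17.0% of genes tested. IZUMO3 and IZUMO4 overlapped between the breeds. The differences with the lowest p were those of the neighbours on chromosome 4, at -1.88 on the log2 scale for DCST1 (SE 0.44, limma adjusted p = 0.144) and -1.71 for DCST2 (SE 0.42, limma adjusted p = 0.168). The other members ran from -1.29 for IZUMO1 to -0.71 for IZUMO4, and the median over the 8 was -0.95 against -0.10 over all genes tested, 57.7% of which were below 0. IZUMO1 and DCST1 were called when the same contrast was taken from the fit of all 30 libraries, as were 4.75% of 19911 genes, with limma adjusted p values of 0.0107 and 3.17e-05, and DCST2 likewise with 5.09e-05. Without DSE replicate 2 that fit called 2.56% of 19841 genes, with DCST1 among them (limma adjusted p = 0.000193) and IZUMO1 not (-0.84, limma adjusted p = 0.117). DCST2 was called in the same fit of the table with its isoforms grouped by position (limma adjusted p = 0.000452).

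DSE replicate 2 was the lowest testis library for 7 of the 9 genes, and DSE replicate 1 was the lowest for SPACA6 and TMEM95. The BMI mean of DCST1 was 3.56 times the DSE mean and 2.84 times without DSE replicate 2. For IZUMO4 the ratio was 1.41 and became 1.07 without it. Without it the log2 differences were -1.53 for DCST1 (limma adjusted p = 0.130), -1.44 for DCST2 (limma adjusted p = 0.168), -0.87 for TMEM95, -0.84 for IZUMO1, -0.83 for SPACA6, -0.73 for TMEM81, -0.58 for IZUMO2, -0.24 for IZUMO3 and -0.11 for IZUMO4. The median over the 8 was then -0.78 and that over all genes -0.08, and again no member was called, against 1.51% of genes. An unadjusted p below 0.05 was then found for 5 of the 8 members and 15.2% of genes. The same 6 named members, and DCST2, had no overlap between the breeds after it was left out, when 21.4% of genes tested had both DSE libraries below all 3 BMI libraries. Without DSE replicate 3, DCST1 was called with a log2 difference of -2.36 (limma adjusted p = 0.0457), and so was DCST2 with -2.21 (limma adjusted p = 0.0427), in a fit that called 1.15% of all genes.

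Summed marker levels differed in whether the breeds overlapped. The spermatid sum overlapped, at 78041 to 97110 TPM over the 3 BMI libraries and 25967 to 118806 over the DSE libraries, where replicate 1 was the highest of all 6. The spermatocyte sum ran from 352 to 428 TPM in BMI and from 118 to 342 in DSE, and the acrosome gene sum ran from 5200 to 6060 against 1500 to 4721. The Leydig sum ran the other way, from 18624 to 21844 in BMI against 23966 to 63648 in DSE, and the Sertoli sum from 286 to 305 against 342 to 730. No gene of these lists was called between the breeds in testis with all 6 libraries. Without DSE replicate 2, INHA, a Sertoli marker that encodes the inhibin alpha subunit, was called higher in DSE (1.27 on the log2 scale, limma adjusted p = 0.0442), and so was UCHL1, a spermatogonium marker (1.26, limma adjusted p = 0.0242). The log2 difference was below 0 for 11 of 11 spermatid markers (median -0.73), 10 of 10 spermatocyte markers (median -0.81), 1 of 9 Sertoli markers (median 0.46) and 0 of 6 Leydig markers (median 0.65), and for 57.7% of all genes. Without DSE replicate 2 it was below 0 for 7 of 11 spermatid markers (median -0.10), 8 of 10 spermatocyte markers (median -0.34), 2 of 8 Sertoli markers (median 0.095) and 2 of 6 Leydig markers (median 0.22), and for 61.4% of all genes. Among the 4 spermatogonium markers tested, 2 were below 0 with all libraries (median 0.012) and 2 without DSE replicate 2 (median -0.053). UCHL1 therefore does not stand for that list. The part of cell composition in the members' values was not tested.

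**Figure D3:**
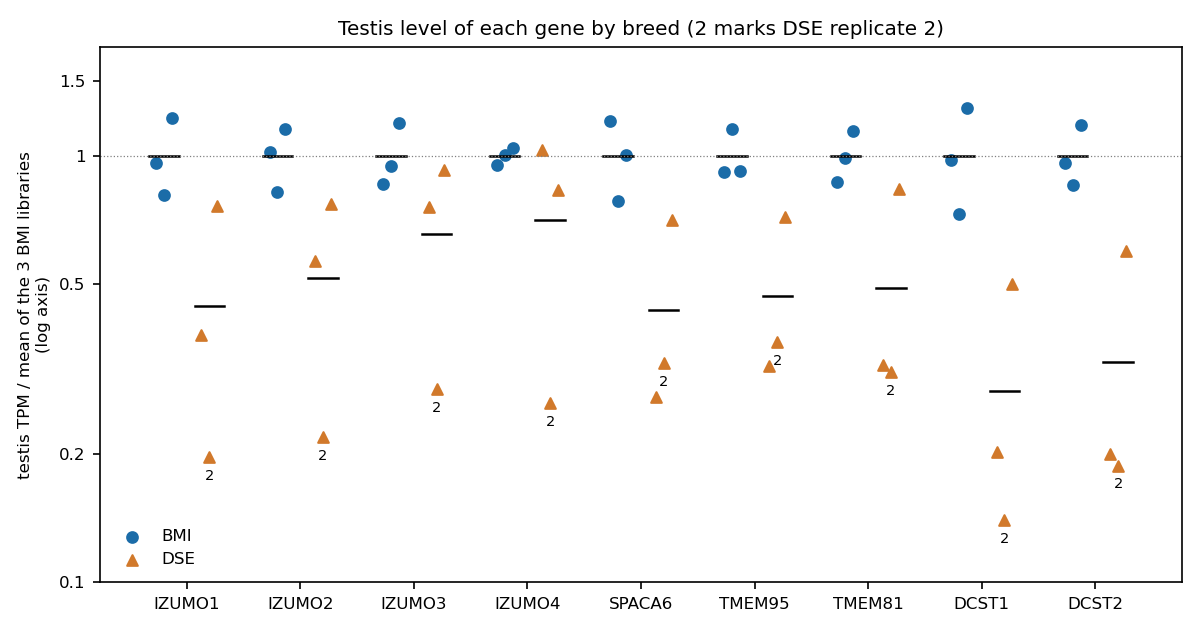
Testis TPM of each gene and library divided by the mean of the 3 BMI libraries, on a log axis, with bars at the mean of each breed and a 2 under DSE replicate 2. DSE triangles lie below all BMI circles for 7 genes and overlap them for IZUMO3 and IZUMO4, and DSE replicate 2 is the lowest for 7 of the 9 genes.

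In the other glands only members expressed at 1 TPM or more in 3 libraries were tested between the breeds. These were IZUMO2, IZUMO4 and SPACA6 in epididymis and vesicular gland, and IZUMO4 and SPACA6 in prostate and bulbourethral gland. None was called by limma in any of the 4 glands, where 0.00%, 0.821%, 0.355% and 0.0872% of genes were called in that order. SPACA6 had an unadjusted p below 0.05 in vesicular and bulbourethral gland, as had 18.4% and 5.24% of genes there. Its log2 difference was -0.86 in vesicular gland (SE 0.39, limma adjusted p = 0.265) and -0.67 in bulbourethral gland (SE 0.21, limma adjusted p = 0.584). In vesicular gland 88.1% of all genes were below 0, with a median of -0.42 that size factors moved to 0.03, and in bulbourethral gland the median was -0.015.

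The breed difference in testis minus the mean one in the other glands was taken as an interaction term in the fit of 30 libraries. DCST1, TMEM95 and DCST2 were under 1 TPM in all 24 libraries outside testis, and IZUMO1 in 22, so they passed the filter through testis and their term largely restates the testis difference. In the order epididymis, vesicular, prostate and bulbourethral gland, the breed differences from that fit were 0.19, 0.16, 0.067 and 0.040 for DCST1, 0.14, 0.034, 0.033 and 0.027 for TMEM95, and -0.12, 0.059, 0.55 and 0.058 for IZUMO1. Of the 8 members 3 were called lower and 0 higher, against 3.01% and 0.809% of genes. The terms were -1.99 for DCST1 (SE 0.30, limma adjusted p = 8.49e-05), -1.43 for IZUMO1 (SE 0.35, limma adjusted p = 0.0154) and -1.04 for TMEM95 (SE 0.20, limma adjusted p = 0.00161). DCST2 gave -1.67 (SE 0.28, limma adjusted p = 0.000375). Without DSE testis replicate 2, of these 3 DCST1 alone was called (-1.64, limma adjusted p = 0.000301), as was DCST2 (-1.40, limma adjusted p = 0.00192), and the terms of IZUMO1 and TMEM95 were -0.98 and -0.93. Without DSE testis replicate 2, 1.48% of genes were called lower. Without DSE testis replicate 3 there were 5 calls, with IZUMO3 (-1.01) and TMEM81 (-1.22) added, and 6.14% of genes were called lower. IZUMO1 lost its call also without BMI testis replicate 3 (-1.28), and TMEM95 without BMI testis replicate 2 (-0.94) or DSE testis replicate 1 (-0.86).

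The Iso-seq libraries held 455023 full-length reads in BMI testis, 457778 in DSE testis and 231413 to 458697 in the others. The 8 named members had 24 isoforms, all predicted to be coding in the deposited table, of which 6 were also predicted targets of nonsense-mediated decay, 5 of IZUMO4 and 1 of SPACA6. DCST2 added 4 coding isoforms. TMEM95 had none. The table lists isoforms of at least 2 reads over all libraries, so a gene without a read there gives no upper limit. Intervals are exact Poisson 95% intervals and cover counting error only, and with 1 library for each breed and gland there is no test.

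Members were read mostly in testis. IZUMO4 had 58 reads in BMI testis (44.0 to 75.0) and 68 in DSE testis (52.8 to 86.2), with 8 reads in the other glands together. DCST1 had 34 (23.5 to 47.5) and 4 (1.09 to 10.2), and DCST2 had 27 (17.8 to 39.3) and 0. IZUMO1 had 19 (11.4 to 29.7) and 3 (0.619 to 8.77). IZUMO3 had 5 reads and 0, TMEM81 3 and 1, and IZUMO2 2 and 1. SPACA6 had no testis read and 4 reads in other glands. The BMI intervals lay above the DSE intervals for DCST1 and IZUMO1, and for IZUMO4 the intervals overlapped. How many other genes separate in this way between these single libraries was not counted, so this is a description.

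**Figure D4:**
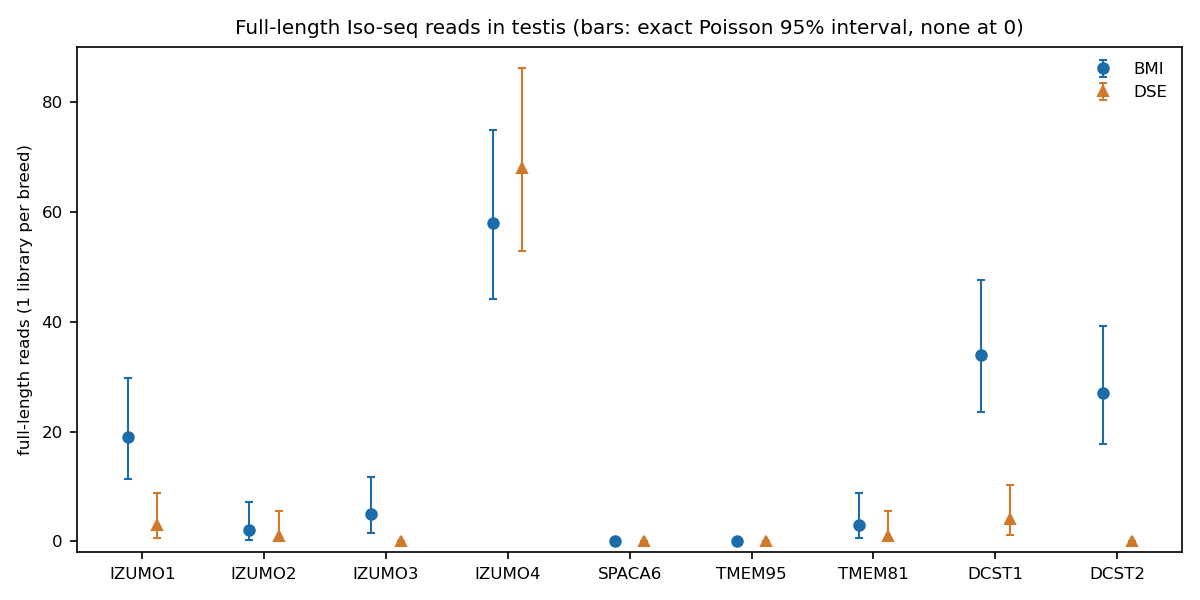
Full-length Iso-seq reads of each gene in the BMI (circles) and the DSE (triangles) testis library, with exact Poisson 95% intervals as bars where there was a read. IZUMO4 has most reads in both, and DCST1, DCST2 and IZUMO1 have 34, 27 and 19 in BMI against 4, 0 and 3 in DSE.

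The coding isoforms can be set beside RefSeq. PB.15877.1, the single Iso-seq isoform of IZUMO1 with 9 exons, encodes 347 amino acids with the same coding sequence as RefSeq, and took 92.5% of IZUMO1 TPM in testis. PB.10734.36 of IZUMO4 (10 exons, 218 amino acids, 87 reads) and both TMEM81 isoforms (276 amino acids) also share the RefSeq coding sequence. PB.13596.3 of DCST1, with 707 amino acids and 25 reads, matches the Ensembl transcript ENSSSCT00000068648. That transcript has the RefSeq coding sequence and took 47.7% of DCST1 TPM in testis, followed by PB.13596.2 (37.9%) and PB.13596.4 (14.4%), both of 636 amino acids.

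Other isoforms had shorter reading frames. PB.13597.2 of DCST2 (13 reads, 46.9% of DCST2 TPM in testis) has the introns of the RefSeq gene and a called frame of 716 amino acids against 735. PB.13597.4 and PB.13597.3 encode 659 and 660. PB.15933.1 of IZUMO2 encodes 162 against RefSeq forms of 273 and 316. PB.1587.1 of IZUMO3, which took 73.4% of its TPM in testis, was given a frame of 34 amino acids, and PB.1587.2 one of 110, against 234 in RefSeq. The 2 SPACA6 isoforms, of 61 and 104 amino acids, had no polyadenylation motif and ended before genomic stretches of 65% and 85% A. Whether they were primed inside a longer RNA was not tested. Each other member with Iso-seq isoforms had a motif in all of them.

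IZUMO4 transcripts differed by an exon of 15 bases, exon 9 of 10. It adds 5 codons, the step from 213 to 218 amino acids between PB.10734.46, which matches ENSSSCT00000045413, and PB.10734.36. The sequence is printed because the breed values that follow depend on it, with capitals for the exon.
IZUMO4 exon 9, chr2:76472788-76472802, minus strand: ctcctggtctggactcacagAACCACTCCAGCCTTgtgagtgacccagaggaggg

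The share of IZUMO4 TPM with this exon was taken among transcripts that hold it or have an intron spanning it. The exons on either side were not matched, and 2 transcripts were pooled as skipping. The share was 79.1%, 79.5% and 78.6% in BMI testis and 88.5%, 88.2% and 90.8% in DSE testis. The breeds did not overlap, and DSE replicate 2, which stood apart in its markers, lay with the other DSE libraries. The means were 79.1% ± 0.43 and 89.2% ± 1.43 (SD, n = 3 each), a difference of 10.1 points. The two-sided exact permutation test gave p = 0.1, the smallest that 3 against 3 libraries allow, and the exon was chosen after its values were seen. In epididymis the shares were 74.0%, 63.7% and 80.2% in BMI against 88.2%, 89.3% and 85.4% in DSE, without overlap. In bulbourethral gland they were 77.8%, 84.4% and 79.4% in BMI against 89.7%, 96.9% and 84.7% in DSE. The breeds were barely apart there, and skipping transcripts were at only 0.199 to 2.52 TPM. In vesicular and prostate gland the breeds overlapped. How many other exons separate the breeds in any gland was not counted. In Iso-seq testis reads, 33 of 44 from BMI held the exon (75.0%, exact binomial 95% interval 59.7 to 86.8) and 54 of 55 from DSE (98.2%, 90.3 to 99.95).

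**Figure D5:**
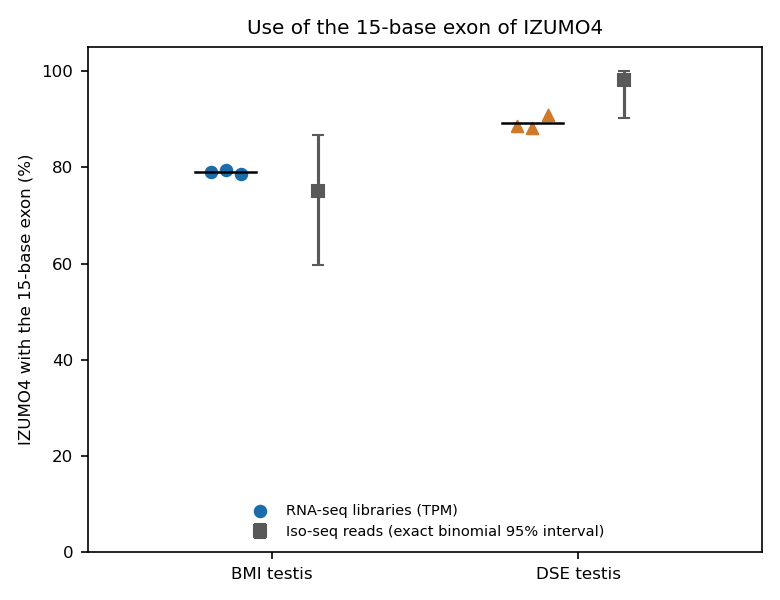
Percent of IZUMO4 with the 15-base exon in testis, as TPM shares in RNA-seq libraries (circles for BMI, triangles for DSE, bars at the mean) and as Iso-seq read shares (squares with exact binomial 95% intervals). BMI RNA-seq libraries lie at 78.6% to 79.5% and DSE libraries at 88.2% to 90.8%.

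Skipping of exon 4 was rare in the members for which a skipping transcript exists. IZUMO1 kept it in 92.9% ± 1.68 of TPM in BMI testis and 91.8% ± 1.55 in DSE testis (SD, n = 3 each, two-sided exact permutation p = 0.4), the rest being ENSSSCT00000096948. IZUMO3 kept it in 99.8% ± 0.27 and 100%.

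The wider fusion machinery was read from a list of 18 other gamete fusion and membrane factors, of which 12 were tested. In testis 8 of them were called higher, led by CRISP2, a cysteine-rich acrosomal and tail protein, at 1774 TPM and by LLCFC1, a sperm factor needed for fusion in mice, at 760 TPM, and 3 were called lower, CRISP1, CRISP3 and the egg tetraspanin CD9. The list median was 5.45 on the log2 scale. IZUMO1R was listed at 0 in every testis library. Of 30 genes listed for the acrosome and binding to the zona pellucida, 27 were measured and 25 passed the filter and were tested. All 25 were called higher in testis (median 6.12). Of these, 17 entered the test through testis alone, where they had to be higher, as did 5 of the 8 fusion factors called higher. The acrosome list was led by ACRBP at 744 TPM and PRSS37 at 524 TPM. Between the breeds in testis no gene of either list was called, and the log2 difference was below 0 for 9 of 10 fusion factors (median -0.84) and 24 of 25 acrosome genes (median -0.74), as it was for 57.7% of all genes. Without DSE testis replicate 2 it was below 0 for 8 of 10 (median -0.29) and 22 of 25 (median -0.14), and for 61.4% of all genes.

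Other marker lists in testis were led by TNP1 (15632 TPM) after PRM1 among spermatid markers, SYCP3 (126) and PIWIL1 (62.4) among 9 of 10 spermatocyte markers called higher, and CYP17A1 (6442) after INSL3 among Leydig markers. Of the 9 spermatocyte markers called higher 8 had entered the test through testis alone. Of 6 spermatogonium markers 2 were called higher and of 9 Sertoli markers 7 higher and 1 lower, with 1 and 4 of those higher entered through testis alone. Among 7 epididymal epithelium markers 2 were lower, among 4 smooth muscle markers 4 were lower, among 5 macrophage markers 1 was higher and 3 lower, and of 4 endothelial markers none was called. Over all genes 34.5% were called higher and 12.7% lower.

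Genes whose levels ran most like each member's were named by Pearson's r of log2(TPM + 1) over the 30 libraries, among 13868 candidates. The libraries share glands, so r mostly reads the step between testis and the rest, and it is a description without a test. The closest were FBXO24, SPATA46 and PP2D1 for IZUMO1 (highest r 0.988), CALR3, TFR2 and LRRC27 for IZUMO2 (0.980), CCDC54, MS4A5 and MAEL for IZUMO3 (1.0), and PCSK4, CCHCR1 and TNFAIP8L1 for IZUMO4 (0.99). For TMEM95 and DCST2 the closest were the same pair, ACTL8 and EFHB, at 0.997 and 0.999 for ACTL8, followed by SCN11A for TMEM95 and IQCA1L for DCST2. For TMEM81 they were PPIL6, APOBEC4 and SPATA48 (0.986), and for DCST1 APOBEC4, STPG3 and DMRTA2 (0.996). SPACA6 had no close match, with LENG8 first at 0.759 and then AKAP17A and BAHCC1. IZUMO3 had 405 genes above 0.99 and IZUMO1 none.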

How the data were processed

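RNA-seq values were TPM per transcript, which the authors computed with salmon on an annotation merging Ensembl and Iso-seq transcripts, and deposited. Iso-seq values were deposited counts of full-length reads per isoform after clustering, collapsing and SQANTI3 classification. The percent of A after an isoform's 3′ end was deposited by the authors from SQANTI3. The submitters' processing notes name GSNAP, STAR 2.7.10a and Salmon 1.9.0. The labels name rRNA depletion and the methods poly-T bead purification for the RNA-seq libraries. TPM keeps no depth, and the read totals that the study lists per RNA-seq library were not used here.

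TPM was summed by gene name. Genes with at least 1 TPM in at least 3 fitted libraries were tested with limma 3.58.1 in R 4.3.3 on log2(TPM + 1), with group means for breed and gland, and the tests were tried on simulated data. Exact tests used scipy 1.17.1. The small RNA table was not used. DCST2, the 15-base exon and the cysteine codons were taken up after the data were seen. The members and lists were chosen with earlier results of these data known. Genes named are all members, per member the 3 most correlated, per list the 2 highest in testis, and up to 3 isoforms or transcripts per member. The lists were fusion factors, acrosome genes and 9 sets of cell markers, drawn up from textbook knowledge. Among the alternatives were a 0.1 pseudocount, no filter, size factors, Ensembl transcripts only, a replicate block, one fit of 30 libraries and leaving out each library. Same-numbered testis libraries of the 2 breeds correlated at -0.21, -0.02 and 0.12 in their deviations from group means. Same-numbered libraries of different glands within a breed correlated at -0.30 to 0.39, over 0.1 in 20 of 60 cases. In DSE all 3 numbers were positive for vesicular gland with testis (0.15 to 0.29) and with epididymis (0.23 to 0.39). All 3 were negative for vesicular with bulbourethral gland (-0.30 to -0.12). The numbers were not taken as pairs. Sequences came from the Sscrofa11.1 reference, in whose length all 20 chromosomes of the annotation fit.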

Additional observations from a re-analysis of the deposited data

Results flagged for a closer look

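For 4 genes the breed difference in testis minus the mean one in the other 4 glands passed the threshold, as the interaction term of the limma fit. The terms on the log2 scale were -1.43 for IZUMO1, -1.04 for TMEM95, -1.99 for DCST1 and -1.67 for DCST2 by position. Outside testis TMEM95, DCST1 and DCST2 were under 1 TPM in all 24 libraries and IZUMO1 in 22 of them, so the term largely restates the testis difference, which was called for none of the 8 named members in the fit of the testis libraries. It adds no support to that difference. The calls of IZUMO1 and TMEM95 were lost without DSE testis replicate 2, with terms of -0.98 and -0.93.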

How the results depend on the processing

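Leaving out each library gave 7 testis calls each time, 1 in the epididymis comparison, 1 to 5 in the interaction, 0 to 1 between the breeds in testis and 0 in each other gland. The exon share difference of IZUMO4 ran from 9.28 to 10.6 points. With a pseudocount of 0.1, TMEM81 (1.18, limma adjusted p = 0.00255) joined IZUMO2 in epididymis for 2 calls, where 28.0% of genes were called higher, and IZUMO1 lost its interaction call (-1.69, limma adjusted p = 0.332), as it did with Ensembl transcripts alone (-0.83, limma adjusted p = 0.178). The cause was not tested. With Ensembl transcripts alone there were 6 testis calls, as TMEM81 was not tested, and the differences of IZUMO1, IZUMO2 and IZUMO3 went from 4.27, 4.76 and 5.67 to 1.18, 1.52 and 2.64. With size factors the epididymis differences of IZUMO1 and SPACA6, neither called, turned to -0.032 and -0.24. Between the breeds in testis, one fit of 30 libraries gave 2 calls, and 1 without DSE testis replicate 2, a setting chosen after seeing the data. BMI testis Iso-seq reads went from 121 to 148 with DCST2.

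The replicate block gave 1 call between the breeds in testis, DCST1 (limma adjusted p = 0.0235), and DCST2 (limma adjusted p = 0.0457), where 1.38% of genes were called, and changed no other call of a member. Same-numbered libraries correlated between -0.55 and 0.37 across breeds and -0.30 and 0.39 across glands, and the numbers were not taken as pairs. Of 1060 alternative values of single members 1039 kept direction and side of the threshold, 7 lost a call, 12 gained one and 2 changed sign. An alternative with fusion isoforms was not run because 0 join a member, and matching by gene ID was not run because the reference table held 0 Ensembl IDs. The number of libraries, 3 per breed and gland, limits what can be detected, and Iso-seq counts of a few reads give wide intervals.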
